A study of Mus musculus with 6 samples.

Results

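The genes described here are 47 genes of the cell division cycle, 29 that act in mitosis and 18 that act in DNA replication or in entry into S phase. They were chosen by gene symbol, and all 47 of 47 were found among the 24346 symbols measured. The cells were hepatic stellate cells, liver pericytes that store vitamin A, from wild type C57BL/6 mice aged 35 weeks. They came from the tumour region of livers of mice on a high-fat diet, from the non-tumour region of such livers, and from livers of mice on a normal diet. From each of these 3 sources, cells were isolated by perfusion at 37 degrees in 1 library and at 6 degrees in another, and the fraction with CD49a but without CD31 and CD45.2 on its surface was sorted for RNA sequencing. The study asked how the temperature of isolation changes the expression profile. Each of the 6 combinations of source and temperature had 1 library, so the temperature comparison had 3 library pairs and a comparison of 2 sources had 2. The labels do not say how many livers a library pooled, whether libraries came from separate animals, or whether the tumour and non-tumour regions came from the same livers. The tumour and the non-tumour region were both from high-fat diet livers, so the tumour region differs from normal diet livers in diet and region together.

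A dividing cell copies its genome in S phase and separates the copies in mitosis, and the genes for these steps are transcribed in waves. Replication genes, which encode the helicase that opens the DNA, the enzymes that supply nucleotides and the clamp that holds the polymerase, are switched on around the start of S phase by E2F transcription factors. Mitotic genes, which encode cyclins, kinases, spindle motors and kinetochore proteins, rise later in G2, when the MuvB complex with B-MYB and FOXM1 acts at a promoter element called the cell-cycle genes homology region, often beside CCAAT boxes bound by NF-Y. In a resting liver most stellate cells are out of the cycle. After injury they turn into matrix-producing cells that can also divide.

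Promoters of 4 members, a pair from each class, are shown because they hold matches to these elements in the 2 kinds of arrangement. The sequences are from RefSeq on GRCm38.p6, run 5′ to 3′ on the strand of the gene, and cover 250 bases before the annotated start of transcription to 50 bases after it. Capitals mark matches to the cell-cycle genes homology region (TTTGAA or TTCGAA), the CCAAT box (CCAAT) and the E2F site (TTTCCCGC, TTTGGCGC, TTTCGCGC or TTTGCCGC), each searched on both strands. Cdc20 lies at chr4:118437294-118437593 on the minus strand, Ccnb2 at chr9:70421505-70421804 on the minus strand, Mcm5 at chr8:75109259-75109558 on the plus strand and Mcm6 at chr1:128359656-128359955 on the minus strand.
Cdc20: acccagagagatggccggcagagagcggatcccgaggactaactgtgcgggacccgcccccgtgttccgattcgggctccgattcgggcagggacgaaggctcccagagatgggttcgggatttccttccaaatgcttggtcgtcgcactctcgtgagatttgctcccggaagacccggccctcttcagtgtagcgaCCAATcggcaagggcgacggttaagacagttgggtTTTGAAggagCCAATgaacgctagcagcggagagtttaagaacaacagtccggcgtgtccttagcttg
Ccnb2: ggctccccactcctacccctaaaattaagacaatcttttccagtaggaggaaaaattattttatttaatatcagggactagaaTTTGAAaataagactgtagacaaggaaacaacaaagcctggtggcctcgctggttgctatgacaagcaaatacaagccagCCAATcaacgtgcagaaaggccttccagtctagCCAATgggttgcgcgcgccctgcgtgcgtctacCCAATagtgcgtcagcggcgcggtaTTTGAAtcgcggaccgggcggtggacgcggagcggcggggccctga
Mcm5: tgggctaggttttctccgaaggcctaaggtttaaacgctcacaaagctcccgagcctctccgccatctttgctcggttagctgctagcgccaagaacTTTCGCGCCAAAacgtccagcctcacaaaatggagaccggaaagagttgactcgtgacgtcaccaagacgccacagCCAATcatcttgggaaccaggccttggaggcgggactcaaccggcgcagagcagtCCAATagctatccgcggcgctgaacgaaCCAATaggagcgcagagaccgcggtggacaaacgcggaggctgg
Mcm6: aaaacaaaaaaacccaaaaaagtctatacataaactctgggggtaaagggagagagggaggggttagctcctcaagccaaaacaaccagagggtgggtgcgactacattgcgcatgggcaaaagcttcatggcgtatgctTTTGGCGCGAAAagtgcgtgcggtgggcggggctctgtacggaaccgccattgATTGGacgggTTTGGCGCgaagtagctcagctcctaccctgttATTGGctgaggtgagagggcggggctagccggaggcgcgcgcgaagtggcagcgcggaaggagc

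Positions give the first base of a match, with 1 as the start of transcription and negative numbers before it. In the Cdc20 promoter TTTGAA begins at position -18, with CCAAT boxes at -53 and -8. Ccnb2 holds TTTGAA at -167 and 5, and CCAAT boxes at -87, -54 and -21. Mcm5 and Mcm6 hold no homology region match. Mcm5 has a pair of overlapping E2F matches at -153 and -149, and Mcm6 has a pair at -110 and -106 and a single match at -47. Both also hold CCAAT boxes, at -77, -22 and 7 in Mcm5 and, on the other strand, at -57 and -14 in Mcm6.

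Of the 47 genes, 38 had a promoter in the RefSeq table, and Ccna2, Aurkb, Kif20a, Tpx2, Foxm1, Pbk, Mcm4, Ccne2 and Gins2 had none there. The homology region was matched in 19 of 23 mitotic promoters (82.6%) and in 2 of 15 replication promoters (13.3%), against 21.7% of 27025 genes of the table. The E2F site was matched in 1 of 23 mitotic promoters (4.35%), that of Cdk1, and in 7 of 15 replication promoters (46.7%), against 2.60% of all genes. CCAAT was in 20 of 23 mitotic (87.0%) and 9 of 15 replication promoters (60.0%), against 41.1% of all genes. A homology region and a CCAAT box together were in 18 of 23 mitotic promoters (78.3%), 2 of 15 replication promoters (13.3%) and 9.65% of all genes. The 7 replication promoters with an E2F match were those of Mcm3, Mcm5, Mcm6, Mcm7, Cdc6, Cdt1 and Uhrf1. A match describes the letters in this window and is not shown to be a bound site.

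**Figure D1:**
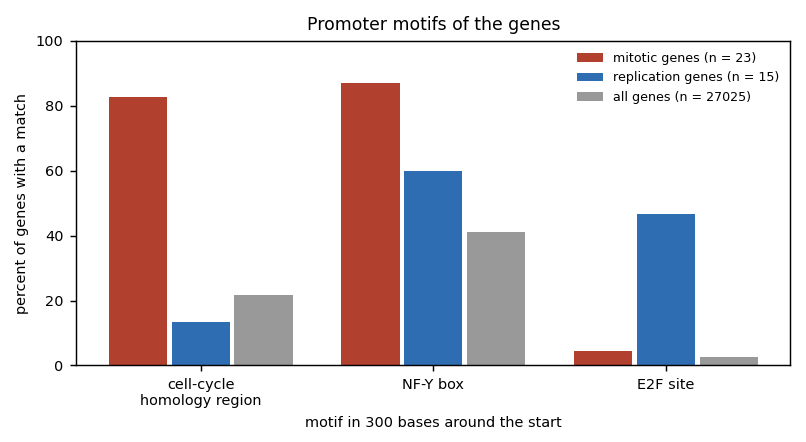
Percent of promoters with at least 1 match to each motif (vertical axis) for 23 mitotic genes, 15 replication genes and all 27025 genes of the table, in 300 bases around the start; the NF-Y box is the CCAAT box. The homology region bar is highest for mitotic genes (82.6%) and the E2F bar for replication genes (46.7%).

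Levels were deposited as FPKM, which count fragments relative to transcript length and library size. The libraries held an estimated 1.67e+07 to 2.32e+07 fragments. The median gene of the 47 rested on about 105 and 350 fragments in the tumour region libraries of 37 and 6 degrees, 55 and 202 in those of the non-tumour region and 764 and 1145 in those of normal diet livers. Stellate cell genes were high throughout, with Lrat, the enzyme that makes retinyl esters, at 335 to 538 FPKM. The 18 stellate markers together summed to 35131 and 26813 FPKM in the tumour region at 37 and 6 degrees, 40010 and 28207 FPKM in the non-tumour region and 28454 and 25534 FPKM in normal diet livers. Endothelial and macrophage genes, which the sort against CD31 and CD45.2 should remove, were also present. The 19 endothelial markers summed to 1028 and 2834 FPKM in the tumour region at 37 and 6 degrees, 1148 and 5319 FPKM in the non-tumour region and 512 and 2391 FPKM on normal diet. The 19 macrophage markers summed to 1278 and 3275 FPKM in the tumour region at 37 and 6 degrees, 51.1 and 899 FPKM in the non-tumour region and 66.7 and 692 FPKM on normal diet. Summed levels over the 6 libraries ran from 210.3 to 688 FPKM for hepatocyte markers, 31.8 to 53.1 FPKM for liver tumour cell markers, 4.45 to 60.6 FPKM for cholangiocyte markers (nearly all Spp1), 1.56 to 62.2 FPKM for neutrophil markers, 1.44 to 17.7 FPKM for T, B and NK cell markers and 0.189 to 5.18 FPKM for erythroid markers. Mpo was at 0 in all 6 libraries and Krt19 in 5.

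The cell-cycle genes were highest in normal diet livers. The 29 mitotic genes summed to 70.3 and 195.9 FPKM in tumour region cells isolated at 37 and 6 degrees, 36.6 and 99.0 FPKM in non-tumour region cells and 388 and 592 FPKM in normal diet cells. The 18 replication genes summed to 145.9 and 187 FPKM, 109 and 154 FPKM, and 338 and 315 FPKM in the tumour region, the non-tumour region and normal diet livers at 37 and 6 degrees. Both sums thus had the order normal diet, tumour region, non-tumour region at each temperature. At 37 degrees the mitotic sum of the tumour region was 18.1% of that of normal diet livers and that of the non-tumour region 9.41%. At 6 degrees these shares were 33.1% for the tumour region and 16.7% for the non-tumour region. The replication sums were closer together, at 43.1% and 59.3% of normal diet for the tumour region and 32.2% and 48.9% for the non-tumour region at 37 and 6 degrees. In bulk RNA a lower level from fewer cycling cells and one from less RNA per cell cannot be told apart.

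**Figure D2:**
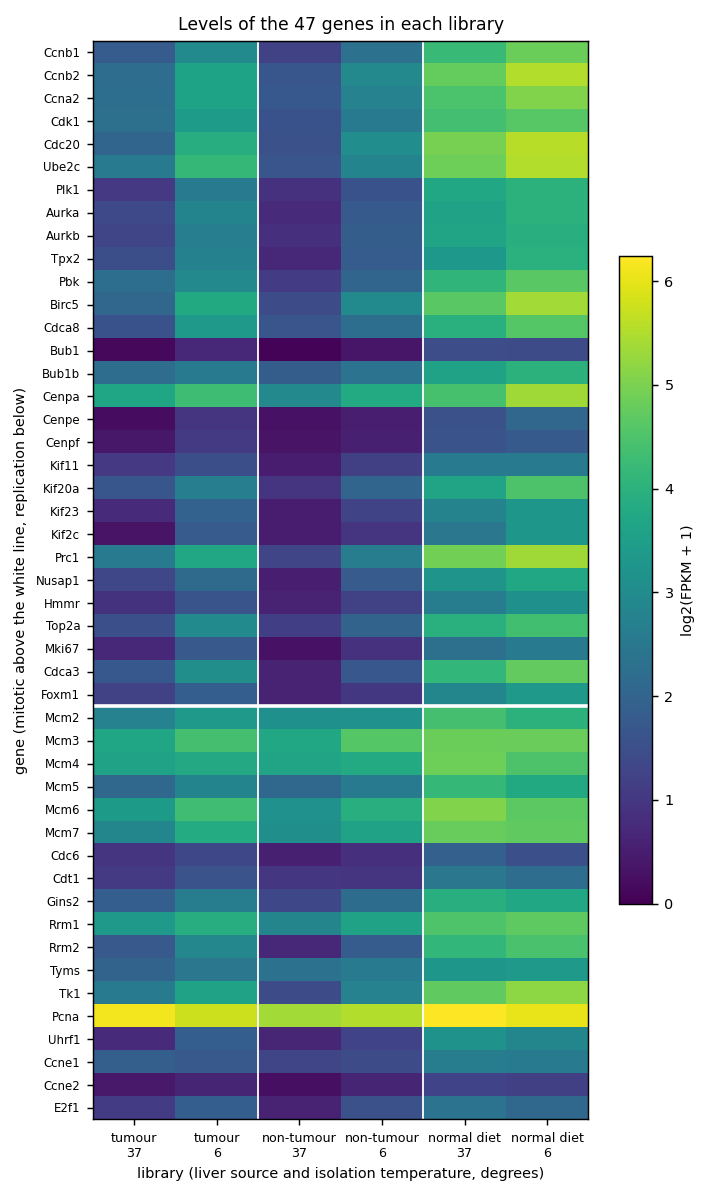
Level of each of the 47 genes (rows, as log2(FPKM + 1)) in the 6 libraries (columns, by liver source and isolation temperature in degrees), with mitotic genes above the white line and replication genes below it. The normal diet columns are the brightest for nearly every gene, and Pcna is the brightest row in every column.

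**Figure D3:**
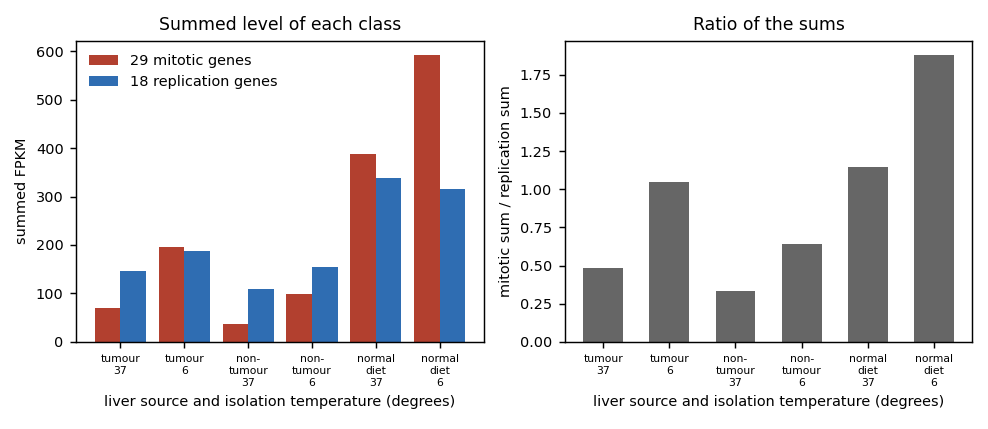
Left, summed FPKM of the 29 mitotic and the 18 replication genes in each library; right, the mitotic sum divided by the replication sum. The ratio is lowest in the non-tumour library of 37 degrees (0.336) and highest in the normal diet library of 6 degrees (1.88).

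Differences between sources were tested gene by gene. Each is the mean difference in log2(FPKM + 1) over the pairs of libraries with its standard error, from 1 limma model. The standard errors and p-values rest on the departure of the 6 libraries from additive effects, not on a spread between animals or replicate libraries. That model held all 11559 genes whose mean over the libraries reached 1 FPKM, and a gene passed at an adjusted p (Benjamini-Hochberg) under 0.05. Of the 29 mitotic genes 28 were tested and of the 18 replication genes 17, since Bub1 and Ccne2 were under the filter. Cenpe, Cenpf and Cdc6 reached the filter only through the normal diet libraries. The counts and medians of the 2 classes include them, and in such genes the filter favours a fall against normal diet livers. In the tumour region 27 mitotic and 11 replication genes fell relative to normal diet livers, and none of the 45 rose, against 3.28% of all tested genes that fell and 6.07% that rose. In the non-tumour region 28 mitotic and 11 replication genes fell and none rose, against 2.59% of all genes that fell and 2.98% that rose. The median difference of the mitotic genes was -1.78 in the tumour region and -2.44 in the non-tumour region. That of the replication genes was -1.02 and -1.32, and that of all tested genes was 0.01 and 0.03 in the tumour and the non-tumour region. Both tumour region libraries were below both normal diet libraries for 28 of 28 mitotic and 16 of 17 replication genes, Pcna excepted, as they were for 24.6% of all genes. Both non-tumour libraries were below both normal diet libraries for all 28 mitotic and all 17 replication genes tested, as they were for 21.3% of all genes. Both contrasts use the same normal diet libraries.

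The cyclins and their kinase, which drive entry into mitosis, fell in both high-fat diet sources (4 of 4 genes in each). Ccnb1, a B-type cyclin, was at 2.52 and 6.76 FPKM in tumour region cells (37 and 6 degrees), 1.29 and 3.99 in non-tumour region cells and 17.4 and 27.4 in normal diet cells. Ccnb2, another B-type cyclin, was at 3.71 and 11.2 FPKM in the tumour region (37 and 6 degrees), 2.2 and 6.67 in the non-tumour region and 26 and 44.7 on normal diet. Both high-fat diet regions were below both normal diet libraries, and in every source the library of 37 degrees was the lower. Ccna2, the cyclin that acts from S phase into early mitosis, had 3.79 FPKM at 37 degrees and 11.3 at 6 in the tumour region, 2.27 and 5.82 in the non-tumour region, and 21.1 and 32.3 in normal diet livers. Cdk1, the kinase that these cyclins activate, had 3.93 and 9.74 FPKM in the tumour region (37 and 6 degrees), 1.95 and 4.9 in the non-tumour region and 19.9 and 23.6 on normal diet. The groups did not overlap with normal diet livers for these genes either. Ccnb2 differed by -2.21 ± 0.18 in the tumour region (limma, adjusted p = 0.00718). In the non-tumour region it differed by -2.83 ± 0.18 (adjusted p = 0.00625). The smallest differences of this group were those of Cdk1, at -1.64 ± 0.24 in the tumour region and -2.44 ± 0.24 in the non-tumour region (limma, adjusted p = 0.0187 and 0.00922).

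The anaphase-promoting complex marks mitotic proteins for destruction, and both of its partners measured here fell in both sources. Cdc20, its activator at the start of anaphase, was at 3.1 and 13.8 FPKM in tumour region cells (37 and 6 degrees), 1.93 and 7.28 in non-tumour region cells and 29.8 and 46.7 in normal diet cells. Ube2c, the ubiquitin-conjugating enzyme that works with it, had 5.06 FPKM at 37 degrees and 16.8 at 6 in the tumour region, 2.15 and 5.98 in the non-tumour region, and 27.9 and 45.1 in normal diet livers. For both genes normal diet livers were well above either high-fat diet region at the same temperature. Cdc20 differed by -2.30 ± 0.29 in the tumour region and -2.96 ± 0.29 in the non-tumour region (limma, adjusted p = 0.0144 and 0.00974). Ube2c differed by -1.81 ± 0.22 and -2.96 ± 0.22 in the tumour and the non-tumour region (adjusted p = 0.0127 and 0.00658). The mean FPKM of Cdc20 was 22.2% of the normal diet mean in the tumour region and 12% in the non-tumour region.

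All 4 mitotic kinase genes and Tpx2, an activator of one of them, fell in both sources. Plk1, which acts at centrosomes, kinetochores and the midbody, was at 1.03 and 4.83 FPKM in the tumour region (37 and 6 degrees), 0.855 and 1.95 in the non-tumour region and 12.4 and 15.1 on normal diet. Aurka, the kinase of the spindle poles, was at 1.58 and 6.06 FPKM in tumour region cells (37 and 6 degrees), 0.695 and 2.41 in non-tumour region cells and 11.1 and 15.2 in normal diet cells. Tpx2, which activates it on the spindle, had 1.84 and 5.64 FPKM in the tumour region (37 and 6 degrees), 0.659 and 2.53 in the non-tumour region and 9.03 and 14.9 on normal diet. In the non-tumour region at 37 degrees these 3 genes were under 1 FPKM. Aurkb, the kinase of the chromosomal passenger complex, had 1.46 FPKM at 37 degrees and 5.35 at 6 in the tumour region, 0.823 and 2.57 in the non-tumour region, and 11.5 and 14.3 in normal diet livers. Pbk, a mitotic serine/threonine kinase, had 3.78 and 6.68 FPKM in the tumour region (37 and 6 degrees), 1.15 and 3.12 in the non-tumour region and 15.8 and 23.9 on normal diet. Their differences from normal diet livers ran from -2.09 to -1.54 in the tumour region (limma, adjusted p from 0.00718 to 0.0205) and from -2.78 to -2.38 in the non-tumour region (adjusted p from 0.00610 to 0.0138).

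Of the chromosomal passenger and checkpoint genes, the 3 that were tested fell in both sources. Birc5, or survivin, a subunit of the passenger complex, was at 3.16 and 12.8 FPKM in tumour region cells (37 and 6 degrees), 1.71 and 6.85 in non-tumour region cells and 23.9 and 40.7 in normal diet cells. Cdca8, or borealin, another subunit, was at 1.99 FPKM at 37 degrees and 9.15 at 6 in the tumour region, 2.11 and 3.76 in the non-tumour region, and 14.6 and 23.2 in normal diet livers. Cdca8 was among the 3 mitotic genes whose tumour and non-tumour libraries were not in the same order at both temperatures. Bub1b, which delays anaphase until every kinetochore is attached, had 3.67 and 4.88 FPKM in the tumour region (37 and 6 degrees), 2.6 and 4.22 in the non-tumour region and 11.1 and 15.2 on normal diet. Its difference was the smallest of the 3, at -1.42 ± 0.13 in the tumour region and -1.69 ± 0.13 in the non-tumour region (limma, adjusted p = 0.00784 and 0.00699). Bub1, its partner kinase, was not tested and had 0.105 and 0.647 FPKM in the tumour region (37 and 6 degrees), 0.0387 and 0.291 in the non-tumour region and 1.78 and 1.75 on normal diet. The value in the non-tumour library of 37 degrees is about 2 fragments.

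The centromere and kinetochore genes were among the mitotic genes with the smallest differences from normal diet livers. Cenpa, the histone H3 variant that marks centromeres and the mitotic gene with the highest mean level, was at 11.6 and 18.7 FPKM in tumour region cells (37 and 6 degrees), 6.59 and 13.2 in non-tumour region cells and 20.6 and 39.7 in normal diet cells. It differed by -0.91 ± 0.12 in the tumour region and -1.51 ± 0.12 in the non-tumour region (limma, adjusted p = 0.0154 and 0.00699). Cenpe, a kinetochore motor, had 0.15 and 0.925 FPKM in the tumour region (37 and 6 degrees), 0.245 and 0.437 in the non-tumour region and 1.9 and 3.16 on normal diet. Cenpf, a large kinetochore protein, had 0.313 FPKM at 37 degrees and 1.08 at 6 in the tumour region, 0.248 and 0.452 in the non-tumour region, and 2.01 and 2.4 in normal diet livers. Cenpe and Cenpf were thus near or under 1 FPKM in every high-fat diet library. Cenpf was the only tested mitotic gene that missed the threshold in a contrast with normal diet livers, with -0.95 ± 0.21 in the tumour region (limma, adjusted p = 0.0505).

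All 7 genes of spindle motors and of the spindle midzone fell in both sources. Prc1, which bundles microtubules at the midzone, was at 4.82 and 12.2 FPKM in tumour region cells (37 and 6 degrees), 1.48 and 5.12 in non-tumour region cells and 28.9 and 39.7 in normal diet cells. Its difference was -2.0 ± 0.23 in the tumour region and -3.16 ± 0.23 in the non-tumour region (limma, adjusted p = 0.0115 and 0.00655). Kif20a, a motor needed for cytokinesis, was at 2.18 and 5.33 FPKM in the tumour region (37 and 6 degrees), 0.929 and 3.1 in the non-tumour region and 11.5 and 21.6 on normal diet. Kif23, the motor of the centralspindlin complex, was at 0.708 FPKM at 37 degrees and 2.9 at 6 in the tumour region, 0.381 and 1.41 in the non-tumour region, and 5.96 and 8.83 in normal diet livers. Kif11, which pushes the spindle poles apart, had 1.05 and 1.83 FPKM in the tumour region (37 and 6 degrees), 0.392 and 1.25 in the non-tumour region and 4.86 and 4.98 on normal diet. The Kif11 values at 37 and 6 degrees were nearly the same on normal diet. Kif2c, which shortens microtubules at the kinetochore, had 0.252 and 2.48 FPKM in tumour region cells (37 and 6 degrees), 0.406 and 0.916 in non-tumour region cells and 4.56 and 8.88 in normal diet cells. Nusap1, which binds spindle microtubules, had 1.5 and 3.43 FPKM in the tumour region (37 and 6 degrees), 0.445 and 2.47 in the non-tumour region and 8.33 and 12 on normal diet. Hmmr, which acts at spindle poles, had 0.892 FPKM at 37 degrees and 2.1 at 6 in the tumour region, 0.503 and 1.3 in the non-tumour region, and 5.27 and 7.74 in normal diet livers. Normal diet livers were above both other sources at each temperature for all 7. The other 6 differed by -1.91 to -1.30 in the tumour region and by -2.58 to -1.74 in the non-tumour region.

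The remaining 4 mitotic genes fell in both sources as well. Cdca3, which promotes entry into mitosis, was at 2.3 and 7.43 FPKM in tumour region cells (37 and 6 degrees), 0.501 and 2.24 in non-tumour region cells and 16.5 and 25.6 in normal diet cells. Its difference of -3.29 ± 0.21 in the non-tumour region was the largest of the 45 tested genes (limma, adjusted p = 0.00625), beside -2.03 ± 0.21 in the tumour region (adjusted p = 0.00941). Top2a, the topoisomerase that untangles sister chromatids, had 1.87 and 6.82 FPKM in the tumour region (37 and 6 degrees), 1.23 and 2.98 in the non-tumour region and 14.5 and 19.3 on normal diet. Mki67, which coats mitotic chromosomes and encodes the proliferation marker Ki-67, had 0.609 FPKM at 37 degrees and 2.34 at 6 in the tumour region, 0.242 and 0.837 in the non-tumour region, and 3.94 and 4.9 in normal diet livers. Its level was under that of Top2a in every library. Foxm1, the transcription factor that activates many of these genes, was at 1.29 and 2.65 FPKM in the tumour region (37 and 6 degrees), 0.538 and 1.01 in the non-tumour region and 6.25 and 9.16 on normal diet. It differed by -1.57 ± 0.16 in the tumour region and -2.29 ± 0.16 in the non-tumour region (limma, adjusted p = 0.00941 and 0.00655).

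Among the replication genes, those for nucleotide supply fell in both sources (4 of 4). Rrm2, the subunit of ribonucleotide reductase that is made in S phase, was at 2.34 and 6.4 FPKM in tumour region cells (37 and 6 degrees), 0.649 and 2.51 in non-tumour region cells and 16.4 and 20.6 in normal diet cells. Rrm1, the longer-lived large subunit, was at 9.26 and 13.8 FPKM in the tumour region (37 and 6 degrees), 6.19 and 11.1 in the non-tumour region and 22 and 24.9 on normal diet. Rrm2 thus differed by -3.01 ± 0.24 in the non-tumour region and Rrm1 by -1.39 ± 0.16 (limma, adjusted p = 0.00699 and 0.0141). In the tumour region the differences were -1.96 ± 0.24 for Rrm2 and -0.98 ± 0.16 for Rrm1 (adjusted p = 0.0129 and 0.0254). Tk1, the salvage enzyme thymidine kinase, had 4.83 FPKM at 37 degrees and 11.1 at 6 in the tumour region, 1.7 and 5.75 in the non-tumour region, and 25.1 and 35.4 in normal diet livers. Its difference was -1.88 ± 0.22 in the tumour region and -2.85 ± 0.22 in the non-tumour region (limma, adjusted p = 0.0115 and 0.00667). Tyms, the thymidylate synthase, had 2.96 and 4.54 FPKM in the tumour region (37 and 6 degrees), 4.14 and 4.82 in the non-tumour region and 8.83 and 9.33 on normal diet, with the tumour region below the non-tumour region at each temperature. It differed from normal diet by -1.11 ± 0.16 in the tumour region and -0.88 ± 0.16 in the non-tumour region (limma, adjusted p = 0.0178 and 0.0417).

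The MCM proteins form the ring-shaped helicase that opens DNA at origins, and their 6 genes had median differences of -1.07 in the tumour region and -1.19 in the non-tumour region. Mcm5 was at 3.22 and 6.04 FPKM in tumour region cells (37 and 6 degrees), 3.23 and 4.95 in non-tumour region cells and 16.8 and 12.9 in normal diet cells. Mcm7 was at 6.25 and 13.2 FPKM in the tumour region (37 and 6 degrees), 7.67 and 11.2 in the non-tumour region and 26.4 and 25.4 on normal diet. For both the tumour and the non-tumour region stood close to each other at each temperature. Mcm4 was at 11.1 FPKM at 37 degrees and 12.7 at 6 in the tumour region, 11.5 and 13 in the non-tumour region, and 28.1 and 21.5 in normal diet livers. Mcm2 was at 5.78 and 9.17 FPKM in the tumour region (37 and 6 degrees), 7.69 and 7.86 in the non-tumour region and 20.0 and 15.1 on normal diet. Mcm4, Mcm5 and Mcm7 fell in both sources, and Mcm2 in the tumour region (limma, adjusted p = 0.0455). In the non-tumour region Mcm2 had -1.07 ± 0.24 (adjusted p = 0.0701). Of the fallen genes, Mcm5 had the largest difference, at -1.53 ± 0.28 in the tumour region and -1.65 ± 0.28 in the non-tumour region (adjusted p = 0.0318 and 0.0338). Mcm3 had 12 and 20.2 FPKM in the tumour region (37 and 6 degrees), 12.3 and 23.3 in the non-tumour region and 27.4 and 27.2 on normal diet. Mcm6 had 9.53 and 18.9 FPKM in tumour region cells (37 and 6 degrees), 7.85 and 14.2 in non-tumour region cells and 32.1 and 24.4 in normal diet cells. Neither passed in either contrast. Mcm3 differed by -0.77 ± 0.22 in the tumour region and -0.66 ± 0.22 in the non-tumour region (limma, adjusted p = 0.103 and 0.175). Mcm6 differed by -1.0 ± 0.33 and -1.32 ± 0.33 in the tumour and the non-tumour region (adjusted p = 0.131 and 0.0864).

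The other replication genes were mixed. Gins2, a subunit of the active helicase, was at 2.63 and 5.19 FPKM in the tumour region (37 and 6 degrees), 1.55 and 3.58 in the non-tumour region and 14.2 and 12.3 on normal diet and fell in both sources. Uhrf1, which guides maintenance methylation of newly copied DNA, was at 0.694 and 2.66 FPKM in tumour region cells (37 and 6 degrees), 0.596 and 1.39 in non-tumour region cells and 8.17 and 6.24 in normal diet cells and also fell in both. Ccne1, the cyclin of S phase entry, was at 2.7 FPKM at 37 degrees and 2.35 at 6 in the tumour region, 1.46 and 1.67 in the non-tumour region, and 5.28 and 5.0 in normal diet livers. It fell in both, with -0.80 ± 0.16 in the tumour region and -1.26 ± 0.16 in the non-tumour region (limma, adjusted p = 0.0389 and 0.0151). Cdt1, which loads the helicase at origins, had 1.1 and 2.05 FPKM in the tumour region (37 and 6 degrees), 0.968 and 0.933 in the non-tumour region and 4.56 and 3.7 on normal diet. It fell in the non-tumour region (limma, adjusted p = 0.0338) and had -1.02 ± 0.23 in the tumour region (adjusted p = 0.0575). Pcna, the sliding clamp of the polymerases, had the highest level of the 47 genes, at 69.2 and 53.7 FPKM in tumour region cells (37 and 6 degrees), 40.1 and 44.5 in non-tumour region cells and 74.4 and 64.8 in normal diet cells. Its tumour region and normal diet libraries overlapped, and it passed in neither contrast. Its differences were -0.19 ± 0.14 in the tumour region and -0.70 ± 0.14 in the non-tumour region (limma, adjusted p = 0.454 and 0.0527). Cdc6, the partner of Cdt1 in loading the helicase, and E2f1, an activating E2F, ran from 0.455 to 2.78 FPKM and from 0.535 to 4.20 FPKM and passed in neither. Ccne2, the other E-type cyclin, was untested, with 0.189 to 1.41 FPKM.

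**Figure D4:**
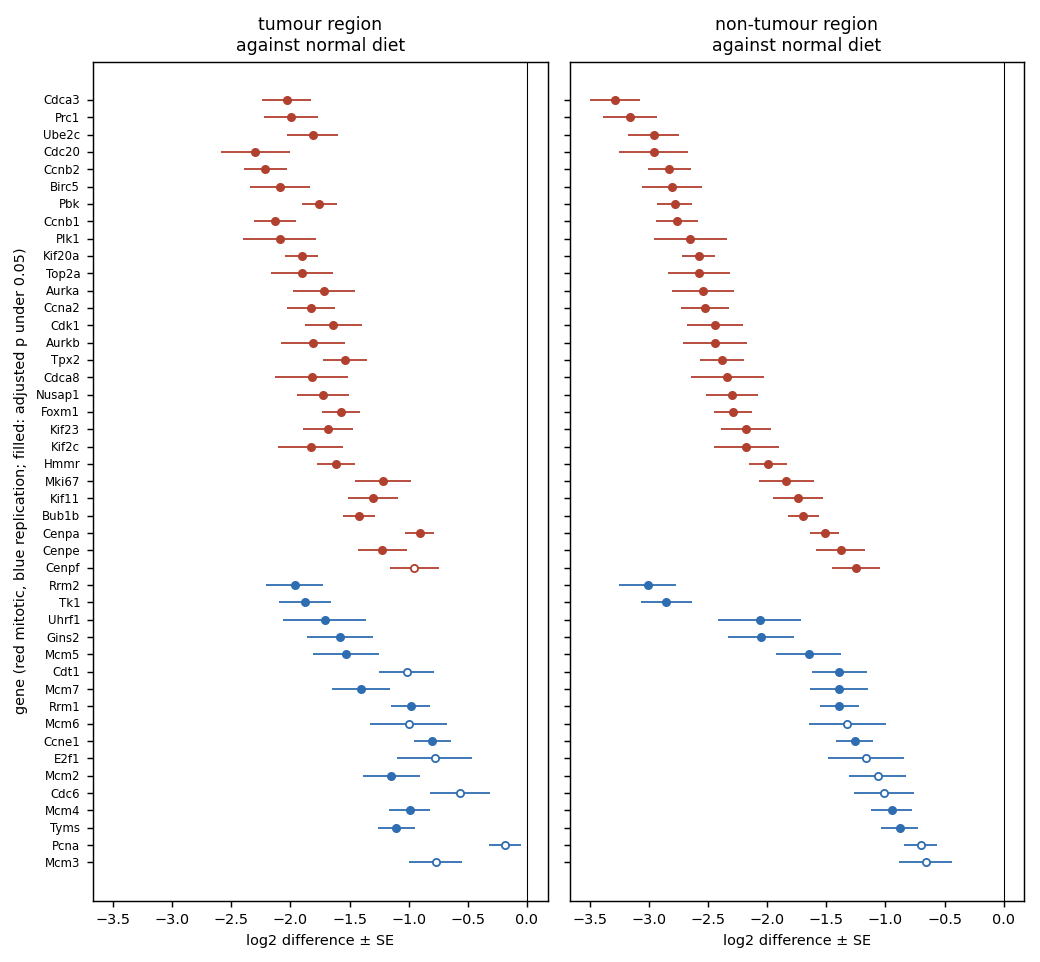
Difference from normal diet livers (horizontal axis, mean log2 difference over 2 pairs of libraries) of the 28 mitotic (red) and 17 replication genes (blue) tested, for the tumour region (left) and the non-tumour region (right). Bars are standard errors from the limma model of all 6 libraries, not the spread of the 2 pairs. Filled points passed at an adjusted p under 0.05 (limma). All points lie below 0, from -2.30 to -0.19 in the tumour region and from -3.29 to -0.66 in the non-tumour region.

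The calls against normal diet livers depended on the libraries used. Without either non-tumour library, 0 of the 45 genes passed in the non-tumour contrast. The mitotic median was then -2.49 without the library of 37 degrees and -2.53 without that of 6 degrees, with all 28 genes lower. Without the normal diet library of 37 degrees 10 mitotic and 2 replication genes passed in the tumour contrast and 18 and 2 in the non-tumour contrast. In the tumour contrast 2, 3 and 4 replication genes passed without the tumour library of 37 degrees and without the non-tumour libraries of 37 and of 6 degrees. With no filter on low levels all 47 genes were tested and 15 mitotic and 2 replication genes fell in the tumour region, and 20 and 2 in the non-tumour region. Macrophage markers were higher in the tumour region than in normal diet livers (11 of 18 tested genes passed, none lower). There 17 of the 18 had a positive difference (median 2.60). In the non-tumour region 0 of the 18 passed, with 8 positive and 10 negative differences (median -0.03). Of 19 endothelial markers 3 passed as higher in the tumour region and 4 in the non-tumour region, none lower. Their differences were positive for 18 of 19 in the tumour region (median 1.22) and for all 19 in the non-tumour region (median 1.91). Of 14 tested hepatocyte markers 2, Cyp2e1 and Trf, were lower in each of these sources and none higher. In the tumour region 5 of the 14 had a positive and 9 a negative difference (median -0.35). In the non-tumour region all 14 had a negative difference (median -0.85). The part of these cell types in the differences was not tested. Stellate markers moved both ways, with 5 of 18 higher and 4 lower in the tumour region and 4 higher and 2 lower in the non-tumour region.

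Between the regions of high-fat diet livers, the tumour region tended to the higher values, but no gene of the 47 passed. All 28 tested mitotic genes had a positive difference, with a median of 0.63, as had 12 of 17 replication genes, with a median of 0.37, against a median of -0.02 over all tested genes. By limma 0 mitotic and 0 replication genes passed, against 0.45% of all genes that rose and 0% that fell. By unadjusted p under 0.05 there were 17 mitotic and 4 replication genes higher and none lower, against 6.37% of all genes higher and 3.75% lower. Cdca3 had the largest difference, 1.26 ± 0.21 (adjusted p = 0.0989), and Pbk, at 1.02 ± 0.15, the smallest adjusted p, 0.0713. Both tumour libraries were above both non-tumour libraries for the mitotic genes Pbk, Cdca3 and Foxm1 (3 of 28). The same held for the replication genes Cdc6, Cdt1, Pcna and Ccne1 (4 of 17), and for 14.7% of all genes. The summed mitotic level of the tumour region was 192% of that of the non-tumour region at 37 degrees and 198% at 6 degrees, and the replication sum 134% and 121%. The MCM genes stood nearly level, with differences from -0.11 to 0.32 and a median of -0.03. At both temperatures the order non-tumour below tumour below normal diet held for 25 of 28 mitotic genes, Cdca8, Cenpe and Kif2c excepted. It held for 11 of 17 replication genes, Tyms, Mcm2, Mcm3, Mcm4, Mcm5 and Mcm7 excepted, as it did for 4.96% of all genes. Of the macrophage markers 3 of 18 were higher in the tumour region, and all 18 had a positive difference; their part was not tested.

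Isolation at 37 degrees went with lower mitotic levels than isolation at 6 degrees in each of the 3 sources. Of 28 tested mitotic genes 11 fell and of 17 replication genes 1 fell, and none rose, against 4.62% of all tested genes that fell and 0.51% that rose. All 28 mitotic genes were lower at 37 degrees in all 3 pairs of libraries, as were 4 of 17 replication genes and 21.8% of all genes. None of the 45 had all 3 libraries of 37 degrees below all 3 of 6 degrees, which 9.4% of all genes had, and for each of them the normal diet library of 37 degrees was above the non-tumour library of 6 degrees. At an unadjusted p under 0.05, 26 mitotic and 4 replication genes were lower and none higher, against 12.1% of all genes lower and 8.52% higher. The median difference was -0.88 for the mitotic genes, -0.44 for the replication genes and 0.01 for all tested genes.

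Birc5 and Cdc20 had the largest falls at 37 degrees. The difference of Birc5 between 37 and 6 degrees was -1.73 in the tumour region, -1.53 in the non-tumour region and -0.74 on normal diet (mean -1.34 ± 0.21; limma, adjusted p = 0.028). For Cdc20 it was -1.85 in the tumour region, -1.50 in the non-tumour region and -0.63 on normal diet (mean -1.33 ± 0.24; adjusted p = 0.0443). In both genes the normal diet pair differed least. Among the cyclins, Ccnb2 differed by -1.13 ± 0.15, Ccna2 by -1.0 ± 0.17 and Ccnb1 by -0.96 ± 0.14 (limma, adjusted p = 0.0187, 0.0349 and 0.0255). Ube2c, the enzyme beside Cdc20, differed by -1.13 ± 0.18 and Cdca3 by -1.02 ± 0.17 (adjusted p = 0.0304 and 0.0357). Of the kinase group, Tpx2 differed by -0.99 ± 0.15 and Pbk by -0.73 ± 0.12 (limma, adjusted p = 0.027 and 0.0357), whereas Plk1, Aurka and Aurkb did not pass (-0.96 to -0.82; adjusted p from 0.0753 to 0.155). Kif20a had the smallest adjusted p of the 47 genes, with -0.99 in the tumour region, -1.09 in the non-tumour region and -0.86 on normal diet (mean -0.98 ± 0.11; limma, adjusted p = 0.0135). Cenpa differed by -0.82 ± 0.10 (adjusted p = 0.0144). Prc1 was at -0.97 ± 0.19, just over the threshold (adjusted p = 0.0533).

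Tk1 was the replication gene that fell, with -1.05 in the tumour region, -1.32 in the non-tumour region and -0.48 on normal diet (mean -0.95 ± 0.18; limma, adjusted p = 0.0486). The other 3 replication genes lower in all 3 pairs were also enzymes of nucleotide supply: Rrm2 (-0.85 ± 0.20, adjusted p = 0.0832), Rrm1 (-0.48 ± 0.13, adjusted p = 0.126) and Tyms (-0.25 ± 0.13, adjusted p = 0.354). The other 13 replication genes were higher at 37 than at 6 degrees in the normal diet pair, among them all 6 MCM genes. Mcm6 had 9.53 and 18.9 FPKM at 37 and 6 degrees in the tumour region and 7.85 and 14.2 FPKM in the non-tumour region, against 32.1 and 24.4 FPKM on normal diet. In the tumour region 15 of 17 replication genes were lower at 37 degrees, all but Pcna and Ccne1, and in the non-tumour region 16, all but Cdt1. Whether the temperature difference depended on diet was tested with a further term in the limma model, added after the data were seen, which left 1 residual degree of freedom. The temperature difference of the 2 high-fat diet sources minus that of normal diet livers had a median of -0.77 over the replication genes (negative for 17 of 17), -0.55 over the mitotic genes (26 of 28) and -0.01 over all genes. None of the 45 genes passed, and neither did any of all tested genes (0%). By unadjusted p under 0.05, 10 replication and 5 mitotic genes were lower and none higher, against 2.43% of all genes lower and 2.8% higher. The difference for Mcm6 was -1.23 ± 0.20 (limma, adjusted p = 0.674).

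**Figure D5:**
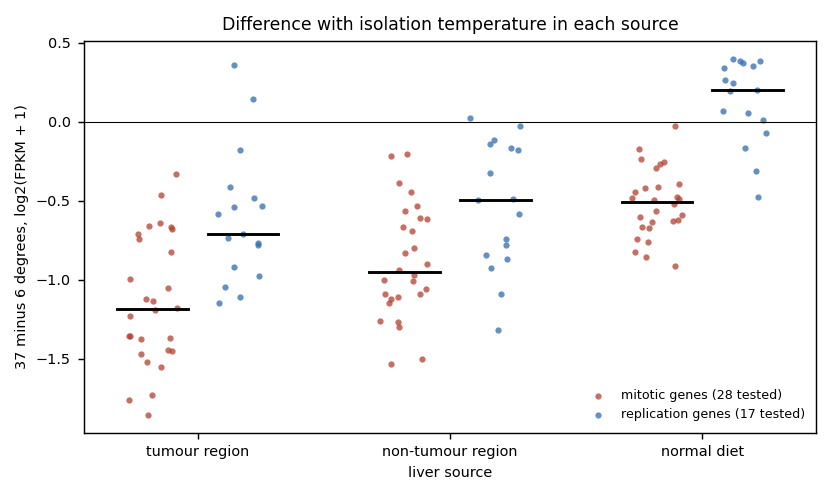
Difference in log2(FPKM + 1) between 37 and 6 degrees (vertical axis) in each liver source for the 28 mitotic (red) and 17 replication genes (blue) tested, 1 point per gene, with black bars at the medians. Mitotic medians are -1.19, -0.95 and -0.51 in the tumour region, the non-tumour region and normal diet livers, and replication medians are -0.71, -0.49 and 0.20.

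Endothelial and macrophage markers were lower at 37 degrees in the same libraries, with 17 of 19 and 13 of 18 tested markers passing, none higher, and median differences of -3.02 and -2.73. Their part in the lower mitotic levels was not tested. Stellate markers went the other way, with 4 of 18 higher, none lower, and a median of 0.36. The number of temperature calls depended on the libraries used, with 0 of the 45 genes passing without either non-tumour library. The mitotic median there was -0.86, beside -0.88 with all libraries, in models with 1 residual degree of freedom. Without the tumour library of 37 and of 6 degrees, 4 and 3 mitotic and 0 replication genes passed, and 12 and 11 mitotic and 4 and 4 replication genes passed without the normal diet library of 37 and of 6 degrees. With no filter 0 of the 47 passed.

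Mitotic and replication genes moved by different amounts in the same libraries. The mitotic median was below the replication median by 0.76 on the log2 scale in the tumour region against normal diet, by 1.12 in the non-tumour region against normal diet and by 0.45 at 37 against 6 degrees. The sign was the same in every pair of libraries. The gap ran from -0.71 to -0.65 in the 2 tumour pairs, from -1.21 to -1.07 in the 2 non-tumour pairs and from -0.71 to -0.46 in the 3 temperature pairs. Between the tumour and the non-tumour region the mitotic median was the higher, by 0.31 at 37 degrees and 0.53 at 6 degrees. The ratio of the mitotic to the replication sum was 0.482 and 1.05 in the tumour region at 37 and 6 degrees, 0.336 and 0.643 in the non-tumour region and 1.15 and 1.88 in normal diet livers. It was thus lower at 37 degrees in every source and lowest in the non-tumour region. Pcna made up much of the replication sum. Without it the ratio was 0.916 and 1.47 in the tumour region, 0.533 and 0.904 in the non-tumour region and 1.47 and 2.37 in normal diet livers. The tumour library of 37 degrees was then above the non-tumour library of 6 degrees, and with Pcna it was below it. At 37 degrees the mitotic sum was 35.9% of its value at 6 degrees in the tumour region, 36.9% in the non-tumour region and 65.6% in normal diet livers, against 78.1%, 70.7% and 107% for the replication sum. The classes overlap gene by gene, as Tk1 and Rrm2 differed by more than most mitotic genes in the non-tumour region, while Cenpa, Cenpe and Cenpf lay within the range of the MCM genes.

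Other genes of the same machinery, taken from lists of 56 further mitotic and 60 further replication genes, were counted in the same contrasts. Of 49 tested mitotic genes 38 fell in the tumour region, 43 in the non-tumour region and 7 at 37 degrees, with medians of -1.32, -1.74 and -0.49. Of 49 tested replication genes 15 fell in the tumour region, 13 in the non-tumour region and 0 at 37 degrees (limma), with medians of -0.46, -0.59 and -0.10. Over all tested genes 3.28%, 2.59% and 4.62% fell in these contrasts. By unadjusted p under 0.05 (limma), 6 replication genes were lower and 1 higher at 37 degrees, against 12.1% of all genes lower and 8.52% higher. These counts are near or under the share over all genes. None of either list rose, and 0 of both passed between the tumour and the non-tumour region. Unadjusted, 16 mitotic and 3 replication genes were higher there, against 6.37% of all genes, which the replication count is near. In the tumour region the largest falls were those of Cdkn3, Fam64a, Kif22, Tacc3, Ckap2 and Racgap1 (-2.21 to -1.90), and in the non-tumour region those of Cenpm, Fam64a, Racgap1, Spc25, Ckap2l and Kif22 (-2.76 to -2.48). First among them were Cdkn3, a phosphatase of cyclin-dependent kinases, in the tumour region and Cenpm, a centromere protein, in the non-tumour region. Cdkn3 was at 0.775 and 4.03 FPKM in tumour region cells (37 and 6 degrees), 0.761 and 2.48 in non-tumour region cells and 9.4 and 17.3 in normal diet cells. It differed from normal diet by -2.21 ± 0.21 in the tumour region (limma, adjusted p = 0.00784). Cenpm was at 0.931 and 5.25 FPKM in the tumour region (37 and 6 degrees), 0.178 and 1.81 in the non-tumour region and 9.53 and 13.4 on normal diet. It differed by -2.76 ± 0.31 in the non-tumour region (adjusted p = 0.0123). At 37 against 6 degrees Fam64a differed by -1.16 ± 0.16 and Cdkn3 by -1.10 ± 0.17. In the same contrast the microtubule-binding proteins' genes Ckap2 and Ckap2l differed by -1.03 ± 0.16 and -0.96 ± 0.17, the chromosome-arm motor gene Kif22 by -1.0 ± 0.16 and the abscission gene Cep55 by -0.81 ± 0.13 (limma, adjusted p from 0.0207 to 0.0418). Among replication genes, Chaf1b, a subunit of the chromatin assembly factor, differed most in the tumour region (-1.80 ± 0.34; limma, adjusted p = 0.0373). Asf1b, a histone chaperone, differed by -1.95 ± 0.24 in the non-tumour region (limma, adjusted p = 0.0145). Others that fell were Asf1b, Dscc1, Lig1 and Chaf1a in the tumour region (-1.39 to -1.09) and Gmnn, Dscc1, Cdc45 and Chaf1a in the non-tumour region (-1.85 to -1.54). Dscc1, at 0.692 and 0.42 FPKM in the tumour region (37 and 6 degrees), 0.0485 and 0.168 in the non-tumour region and 3.99 and 2.08 on normal diet, reached the filter only through the normal diet libraries. It is 1 of 4 such genes among the 49 tested replication genes of these lists, and 16 of the 49 tested mitotic genes were such genes too. The counts and medians of both lists include them, and in such genes the filter favours a fall against normal diet livers. The homology region was matched in 32 of 47 further mitotic promoters (68.1%) and 9 of 45 further replication promoters (20%), against 21.7% of all genes. The E2F site was matched in 6 of the mitotic (12.8%) and 14 of the replication promoters (31.1%), against 2.60% of all genes.

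Of 24 tested genes of G1 and of commitment to the cycle, 2 rose and 1 fell in the tumour region, where 6.07% of all genes rose and 3.28% fell. In the non-tumour region 1 rose and 1 fell, where 2.98% of all genes rose and 2.59% fell. These few calls are near the share over all genes. For temperature 0 passed (limma). By unadjusted p under 0.05, 3 were higher and 3 lower, against 8.52% of all genes higher and 12.1% lower. Ccnd1, a D-type cyclin that links growth signals to the cycle, was at 26 and 29.4 FPKM in tumour region cells (37 and 6 degrees), 18.5 and 22.6 in non-tumour region cells and 8.31 and 14.9 in normal diet cells. It rose in the tumour region by 1.24 ± 0.17 relative to normal diet (limma, adjusted p = 0.0165). Ccnd2, another D-type cyclin, was at 78.6 and 67 FPKM in the tumour region (37 and 6 degrees), 83 and 66 in the non-tumour region and 45.4 and 48.2 on normal diet. It rose in both regions (0.62 ± 0.12 in the tumour and 0.65 ± 0.12 in the non-tumour region; limma, adjusted p = 0.0404 and 0.0476). Neither Ccnd2 call held under quantile normalization or with no filter on low levels, and that of Ccnd1 did not hold with no filter, without the tumour library of 37 degrees or without the normal diet library of 37 degrees. Tfdp2, a dimer partner of E2F factors, had 5.74 FPKM at 37 degrees and 5.05 at 6 in the tumour region, 5.38 and 5.46 in the non-tumour region, and 11.3 and 10.6 in normal diet livers. This gene fell in both (-0.90 ± 0.13 and -0.89 ± 0.13; limma, adjusted p = 0.0174 and 0.022). Of 6 tested inhibitors of cyclin-dependent kinases 0 passed in any contrast (limma). By unadjusted p under 0.05 (limma), 0 were higher and 2 lower for temperature, where 985 and 1394 of all 11559 tested genes were. In the tumour region against normal diet 0 were higher and 2 lower, beside 1781 and 1223 of all genes. In the non-tumour region against normal diet 1 was higher and 2 lower, beside 1461 and 1043 of all genes. Between the tumour and the non-tumour region 0 were higher and 0 lower, beside 736 and 433 of all genes. Cdkn1a, which encodes p21, stood apart in 1 library, with 152 and 19.5 FPKM in tumour region cells (37 and 6 degrees), 18.2 and 20.0 in non-tumour region cells and 19.8 and 18.6 in normal diet cells.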

How the data were processed

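RNA was sequenced from 6 libraries, 1 per combination of 3 liver sources and 2 isolation temperatures. The authors deposited FPKM per gene symbol, made with TopHat2 2.1.1, Bowtie2 and Cuffdiff 2.2.1 on mm10, per the submitters' processing notes. The annotation, strand setting and scaling were not stated (not given in the sources used here), so an overlapping antisense gene may contribute to a level. Rows sharing a symbol were summed. Depth was estimated from the smallest step of low FPKM values, at 1.67e+07 to 2.32e+07 fragments. Low genes in the high-fat diet libraries rest on few fragments: 10 of the 47 genes had under 30 in the non-tumour library of 37 degrees.

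Tests used limma 3.58.1 and R 4.3.3 on log2(FPKM + 1) (empirical Bayes with intensity trend), with source and temperature as additive terms in all 6 libraries. This left 2 residual degrees of freedom (5.37 with the prior). Genes averaging 1 FPKM or more were kept and 1302 small RNA symbols left out, leaving 11559 genes. The pseudocount of 1 understates fold changes of low genes. Benjamini-Hochberg adjustment ran over all 11559 genes, and an adjusted p under 0.05 passed. The standard errors and p-values weigh each difference against the departure of these 6 libraries from additive effects, which may be technical. With 1 library per combination of source and temperature, they hold no spread between animals or replicate libraries. The procedure was tested on simulated data with the same noise for every gene and known effects only in genes of at least 5 FPKM. That test does not show how the calls behave for genes near 1 FPKM. The 47 genes, the other lists and the tests were chosen with earlier results of these data known. Named are all passing genes of the 47, the 5 mitotic and 5 replication genes of highest mean level, and up to 6 passing genes per other list and contrast. Some genes of the other lists are not reported here by name. Promoters came from RefSeq (GRCm38.p6). Alternatives were the pseudocount, the filter, 2 rescalings, no trend, no second term and leaving out each library. A term for temperature within the high-fat diet sources was added after the data were seen.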

Additional observations from a re-analysis of the deposited data

How the results depend on the processing

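Median-ratio and quantile rescaling moved no count of passing genes by over 1.5 times. The median-ratio factors of the libraries lay between 1.00245 and 1.00456, so that rescaling left the levels almost unchanged. It could hardly move a call and says little about how the calls depend on scaling. Alternatives were followed for 127 single-gene differences, not for every gene and contrast, and of these only that of Mcm4 changed sign. Its temperature difference ran from -0.17 (without either normal diet library) to 0.10 (without either tumour library) and passed in none. Other signs changed among the remaining genes. At 37 degrees 14 replication genes were lower with all libraries and 12 without either tumour library. In the tumour against the non-tumour region 0 mitotic genes were lower with all libraries, and 3 and 2 without the tumour and the non-tumour library of 6 degrees. Of the replication genes 5 were lower there with all libraries, 1 without the tumour library of 37 degrees and 8 without that of 6 degrees. Leaving out 1 library at a time, the temperature contrast had 0 to 12 mitotic and 0 to 4 replication genes passing and a gap between the class medians of -0.60 to -0.44. The tumour region against normal diet had 10 to 26 and 2 to 10, with gaps of -0.76 to -0.60. The non-tumour region against normal diet had 0 to 28 and 0 to 13, with gaps of -1.34 to -1.11. The tumour against the non-tumour region had 0 and 0 throughout, with gaps of 0.14 to 0.50. Each such model kept 1 residual degree of freedom and took the lone library of a source to vary like the others. Of the 127 single-gene differences, 127 kept their side of the threshold under median-ratio rescaling, 120 under quantile normalization (6 lost, 1, Pcna in the non-tumour region, gained), 115 with no trend and 104 with a pseudocount of 0.1 FPKM. With no filter 64 lost their call.

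For temperature, 7 mitotic and 0 replication genes passed with a pseudocount of 0.1 FPKM (gap -0.71), 0 replication genes with a 5 FPKM filter or no trend, and 0 of either class with no filter or no source term. For the tumour region against normal diet, 15 and 2 passed with no filter and 0 and 0 with no temperature term, and the gap was -0.87 with a pseudocount of 0.1 FPKM and -0.70 with a 5 FPKM filter. For the non-tumour region against normal diet, 7 replication genes passed with a 5 FPKM filter (gap -1.22) or no trend, 2 with no filter and 0 of either class with no temperature term, and the gap was -1.45 with a pseudocount of 0.1 FPKM. Between the tumour and the non-tumour region the gap was 0.45 with a 5 FPKM filter. The cause of these changes was not tested. No paired analysis was possible because the labels give no replicate numbers that pair libraries across groups, beyond the source term, which pairs the temperatures within each source in all fits that keep it. For the temperature difference by diet, added after the data were seen, 0 of the 45 genes passed also with a pseudocount of 0.1 FPKM, no filter, quantile normalization or no trend, and leaving out a library would leave no residual degree of freedom. Depth limits genes near 1 FPKM in the high-fat diet libraries most.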
